A study of Drosophila melanogaster with 32 samples.

Results

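Accessible chromatin in topi -/- Drosophila melanogaster testes was compared with that in testes 72 hours after a pulse of Bam had sent arrested spermatogonia into differentiation; both are labelled as mature spermatocytes. The comparison used the authors' ATAC-seq peak list and nucleosome map of each condition, with a peak called shared where it overlapped a peak of the other list by at least 1 bp. The topi list held 38078 peaks and the 72h list 35547, together 73625 of the 200831 peaks in the 6 lists of the series. These came from 7 of its 32 samples, 4 topi libraries (technical pairs of 2 replicates) and 3 libraries at 72 h. Each condition has a single pooled list, so no ATAC-seq difference below carries a test between replicates.

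The topi testes came from topi -/- males kept at 25 °C over 10 days, with no heat shock. The aly testes, used for RNA and as a further peak list, came from aly -/- males grown the same way. The 72h testes came from bam -/- males carrying Bam under a heat shock promoter, grown at 22 °C for 9 days, held at 37 °C for 30 min and returned to 25 °C for 72 h; the 48h group differed only in its 48 h of recovery. The heat shock control was bam -/- with the same growth, heat shock and 48 h of recovery, with no Bam transgene in its label, and the bam group was bam -/- grown at 22 °C for 12 days; both are labelled as spermatogonia. Genotype, growth temperature, days of growth and the heat shock all differ between the topi and the 72h testes, and their parts cannot be told apart. ATAC-seq used 10 to 20 pairs of whole testes per technical replicate from males under 1 day old, so somatic cells of the testis are included. RNA-seq used 100 pairs per library from males under 2 days old. In bulk samples of this kind, fewer cells of a type and less signal or RNA per cell cannot be told apart.

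Topi (matotopetli) is a zinc finger protein of tMAC, the testis-specific meiotic arrest complex, a germline relative of the MuvB complex. Together with the testis TAFs, which are germline paralogs of general transcription factor TFIID subunits, tMAC is needed in primary spermatocytes to turn on a large set of genes used in the meiotic divisions and in spermatid differentiation. Testes mutant for tMAC subunits such as topi or aly (always early, a LIN-9 homolog), or for testis TAFs such as can (cannonball), fill with spermatocytes that arrest before the meiotic divisions. Bam (bag of marbles) ends the spermatogonial mitoses, and bam mutant testes accumulate spermatogonia. ATAC-seq cuts DNA where it is not wrapped in a nucleosome, so promoters in use usually appear as peaks at the ends of genes.

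End peaks at marker genes did not settle the label of mature spermatocytes for the topi list. Of 9 spermatocyte marker genes, 4 had a peak within 100 bp of an annotated end of the gene in the topi list (tbrd-2, fest, topi and Rbp4) and 8 in the 72h list. The count was 9 in the aly and 48h lists and 1 in the heat shock control and bam lists. Over all genes 54.4% had such a peak in topi and 64.3% at 72 h, so the topi count is not above that share. The markers without an end peak in topi testes were aly, nht, can, sa and mia, which encode tMAC or testis TAF subunits. A topi peak lay 121 bp from the windows of mia and 337 bp from those of nht. Of 5 spermatogonial markers, 3 had an end peak in topi and 4 at 72 h. All 5 cyst and hub markers and all 6 muscle markers had one in both lists, 2 of 5 fat body and blood markers did in both, and no accessory gland marker of 4 did in either.

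Most accessible sites were common to both conditions. Of the topi peaks, 27467 (72.1%, 95% Wilson interval 71.7 to 72.6) overlapped a 72h peak and 10611 (27.9%) did not. Of the 72h peaks, 26066 (73.3%, interval 72.9 to 73.8) overlapped a topi peak and 9481 (26.7%) did not. These intervals cover counting error only and take each peak as independent. The lists covered 10.1 Mb in topi and 10.4 Mb at 72 h, of which 7.35 Mb was in both, or 72.8% of the topi and 70.7% of the 72h bases. Shared sites were closely aligned, with a median of 9 bp between the summit of a topi peak and the nearest 72h summit (quartiles 2 and 48 bp).

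The unshared peaks of the lists differed in strength. Fold enrichment here is the authors' value at each peak's summit over its local background, and it is used only to rank peaks within a list. In the topi list the unshared peaks had a median fold of 1.96 and the shared ones 3.14; in the 72h list these medians were 2.34 and 3.31. Ordered by the authors' −log10 q in 10 equal parts, the share of topi peaks found at 72 h was 22.4% in the weakest part, 89.2% in part 6 and 99.9% in the strongest. The share of 72h peaks found in topi was 51.1% in the weakest part, 75.4% in part 6 and 99.4% in the strongest. Nearly all topi-only sites were therefore weak peaks of their list, while 72h-only sites were also found among strong peaks.

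**Figure D1:**
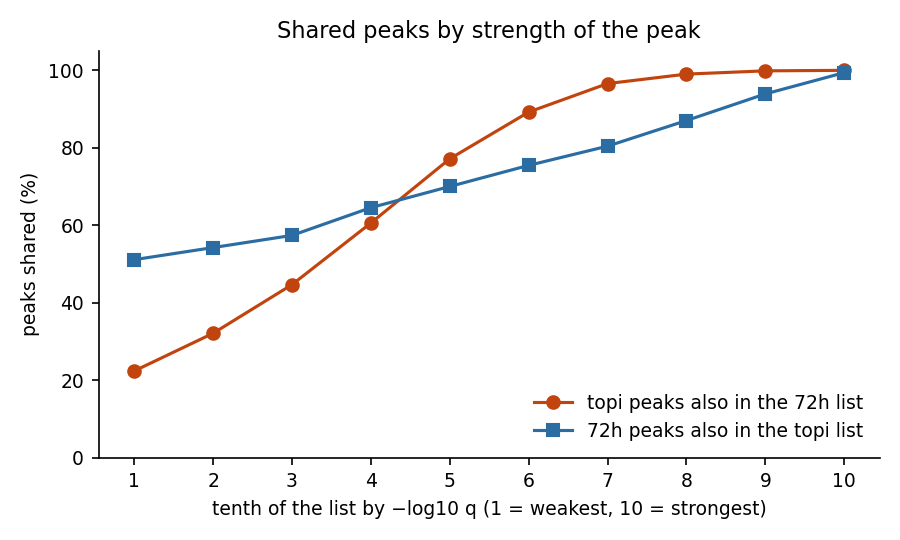
Percentage of peaks shared with the other list (y axis) in 10 equal parts of each list ordered by the authors' −log10 q (x axis, 1 the weakest), for the topi list (circles) and the 72h list (squares). The topi line runs from 22.4% to 99.9% and lies above the 72h line, which runs from 51.1% to 99.4%, from part 5 on.

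The threshold of 1 bp decided few peaks. Of the shared peaks, 11 in the topi list and 10 in the 72h list overlapped by less than 10 bp. Of the unshared, 409 topi peaks (3.85%) and 523 72h peaks (5.52%) had a peak of the other list within 100 bp. The median gap to the nearest peak of the other list was 1368 bp for topi-only and 846 bp for 72h-only peaks, and 6190 topi-only (58.3%) and 4357 72h-only peaks (46.0%) were more than 1000 bp away.

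The unshared peaks were also looked up in the 4 further lists of the series. These lists are unequal, with 36412 peaks at 48 h, 31173 in the heat shock control, 30062 in bam and 29559 in aly. The fragments in their nucleosome maps numbered 2775462, 1322675, 1125677 and 1153634 in the same order. The part of list size and depth in the shares given here was not tested. Of the 10611 topi-only peaks, 25.0% overlapped a 48h peak, 21.2% an aly peak, 19.5% a heat shock control peak and 18.8% a bam peak, and 49.9% were in none of the 4 lists. Over the whole topi list the overlaps were 76.0%, 67.5%, 66.6% and 66.5% in the same order. The order is therefore not particular to the topi-only sites. Of the 9481 72h-only peaks, 57.9% overlapped a 48h peak, 27.6% a heat shock control peak, 21.6% a bam peak and 18.2% an aly peak, and 34.0% were in none. The whole 72h list also overlapped the 48h list most, with 85.4% of its peaks, against 69.1% in the heat shock control, 67.8% in bam and 67.5% in aly, so that order is not particular to the 72h-only sites. Among the 20% of 72h peaks with the strongest q, 241 were unshared, of which 233 (96.7%) were in the 48h list, 88 (36.5%) in the aly list, 30 (12.4%) in the heat shock control list and 28 (11.6%) in the bam list. For the 6869 shared peaks of that 20% these shares were 99.99%, 99.5%, 99.3% and 99.1% in the same order. The strong unshared peaks were thus below the strong shared ones in every list. The strongest 20% of topi peaks held 9 unshared ones.

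Unshared peaks also lay in different places relative to genes. Only 6.19% of topi-only peaks fell within 100 bp of an annotated gene end, against 26.5% of 72h-only peaks; for shared peaks the percentages were 30.1% in the topi list and 31.4% in the 72h list. Within gene bodies lay 74.2% of topi-only and 58.5% of 72h-only peaks, and between genes 19.6% of topi-only and 15.1% of 72h-only peaks. Of the 241 strong 72h-only peaks, 179 (74.3%) lay at a gene end, against 59.5% of the 6869 shared 72h peaks in the same strongest 20%. Within that 20% the ranks differed, with 218 unshared and 3337 shared peaks in part 9 of the list and 23 and 3532 in part 10.

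The X chromosome stood apart from the large autosomes. It held 4497 topi peaks (11.8% of that list) and 5149 72h peaks (14.5%). Of the topi peaks on the X, 85.9% (Wilson interval 84.9 to 86.9) were shared, against 70.3% of those on the arms of chromosomes 2 and 3; for 72h peaks, 70.4% were shared on the X and 73.9% on those arms. The X held 14.5% of the aly list, 14.0% of the 48h list, 13.0% of the heat shock control list and 12.9% of the bam list, so the topi list had the lowest X share of the 6. The nucleosome maps had the same order between the conditions, with 9.60% of topi and 13.4% of 72h positions on the X, and 8.95% of topi and 11.9% of 72h fragments. What sets these shares was not tested.

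Genes with an end peak at 72 h only outnumbered those with an end peak in topi only. Of 17796 annotated genes on the chromosome arms, 553 (3.11%) had an end peak in the topi list only and 2305 (13.0%) in the 72h list only. The excess is smaller with other windows, with 850 topi-only and 1827 72h-only genes at 500 bp and 925 topi-only and 1928 72h-only genes over gene bodies. Both lists had an end peak at 9133 genes (51.3%) and neither did at 5805 (32.6%). In all, 54.4% of genes had an end peak in topi, 54.3% in aly, 51.5% in bam, 52.7% in the heat shock control, 61.0% at 48 h and 64.3% at 72 h. An end peak can belong to a neighbouring or overlapping gene. The 2305 genes include 282 whose end peak at 72 h overlapped a topi peak outside the window, so at 2023 genes the 72h end peaks were wholly unshared. The median distance to the nearest topi peak from the 72h-only gene ends was 823 bp, with 373 genes having one within 100 bp and 1047 (45.4%) none within 1 kb. For the topi-only genes the median distance to a 72h peak was 555 bp.

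Genes with a 72h-only end peak had a shorter median span than all genes and had an end peak at 48 h more often than in the mutants. Their median span was 1.25 kb, against 1.69 kb for all genes and 2.51 kb for genes with an end peak in both lists. Genes with one in neither list were shorter still, at 0.997 kb. Of the 72h-only genes 17.1% were noncoding, against 14.3% of all genes. On the X lay 17.5% of them, against 15.2% of all genes. Of the 2305, 1385 (60.1%) had an end peak at 48 h, 558 (24.2%) in aly, 371 (16.1%) in the heat shock control and 285 (12.4%) in bam. The 553 topi-only genes had one in 36.5% of cases in aly, 34.9% at 48 h, 29.1% in the heat shock control and 24.8% in bam. Over all genes the shares were 54.3%, 61.0%, 52.7% and 51.5% in the same order, and these lists differ in size.

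**Figure D2:**
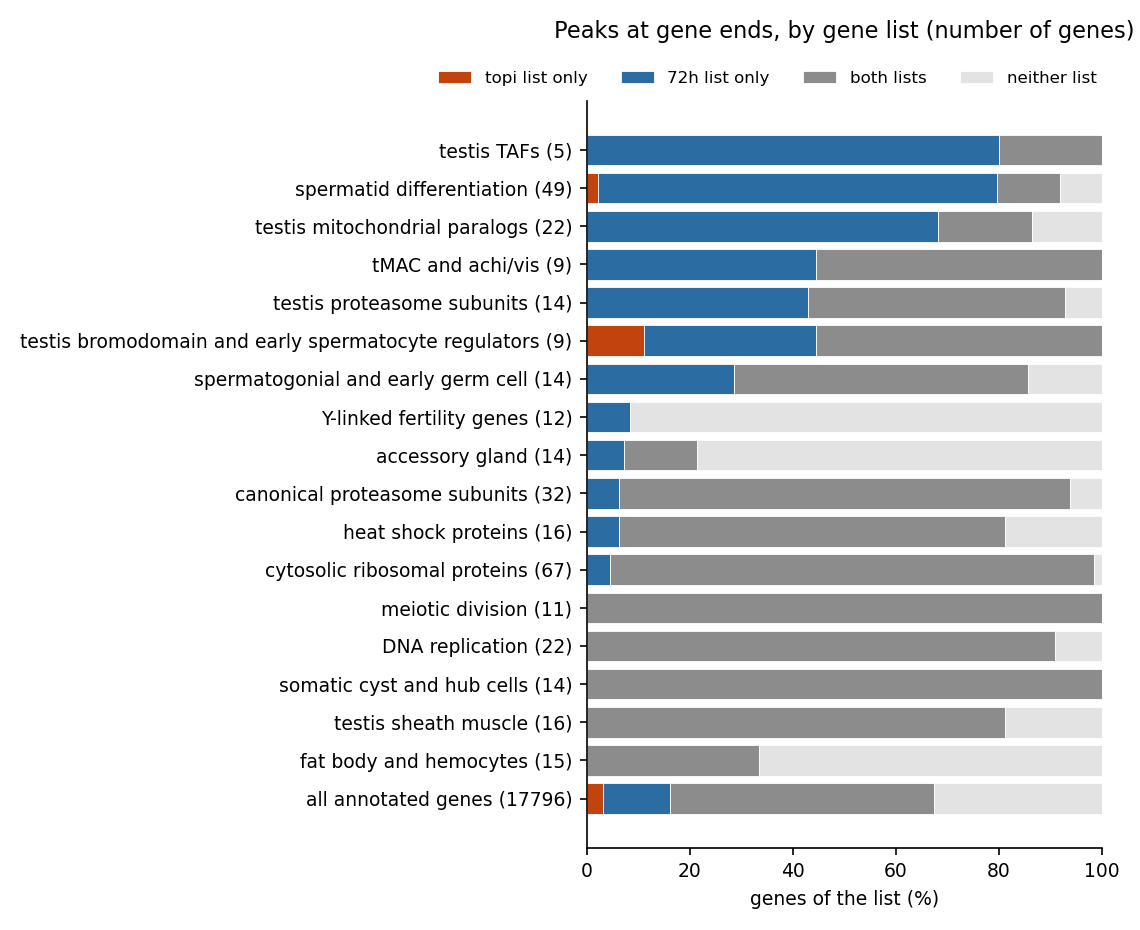
Percentage of the genes of each list (x axis, number of genes in brackets) with an end peak in the topi list only, the 72h list only, both or neither. The 72h-only share is 80% for the testis TAFs, 77.6% for spermatid differentiation genes and 0% for meiotic division genes, against 13.0% of all annotated genes.

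Most testis TAF genes had an end peak at 72 h and none in topi. Of 5 found in the annotation, 4 were 72h-only (can, sa, mia and nht, paralogs of TAF5, TAF8, TAF6 and TAF4) and 1, Taf12L, was in both lists, against 13.0% of all genes being 72h-only. All 5 had an end peak in the aly, 48h and 72h lists and 1 of 5 in the topi, bam and heat shock control lists. The 72h end peak of can (chr3L:10267067-10267176, dm6, at an annotated end of the gene) had a fold of 2.43, and the nearest topi peak was 1402 bp from its windows. That of sa (chr3L:21406587-21406814) had a fold of 3.07, with the nearest topi peak 1946 bp away. For mia (chr3R:5551088-5551325, fold 3.44) and nht (chr2L:15318808-15319032, fold 4.49) a topi peak lay 121 and 337 bp from the windows, and neither is counted as 72h-only with windows of 500 bp. The end peaks of can and sa were thus the ones with no topi peak nearby.

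Genes of tMAC itself and its partners were split. Of 9, 4 were 72h-only (aly, tomb, wuc and vis) and 5 were in both lists (topi, comr, achi, mip40 and Caf1-55). Here aly is the LIN-9 homolog, tomb a CXC-domain protein, wuc a LIN-52 paralog and comr a DNA-binding subunit. The genes vis and achi encode homeodomain proteins that work with tMAC. All 9 had an end peak in the aly, 48h and 72h lists, 5 in topi and bam, and 4 in the heat shock control. The aly peak (chr3L:3026277-3026616, fold 6.43) was the farthest from any topi peak, at 8394 bp, followed by tomb (chr2L:5536724-5536853, fold 2.56) at 2770 bp. For wuc and vis the nearest topi peak was 267 and 293 bp away, and both leave the class with windows of 500 bp. At the topi gene itself (chr3R:9775121-9777943) the end peak was present in both lists, with a fold at or above that of 94.5% of the topi peaks in the topi list and of 94.3% of the 72h peaks in the 72h list. The labels give only the genotype of the topi animals, and this peak does not check it.

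Other early spermatocyte regulators followed no single pattern. Of 9 genes in that list, tbrd-1, tbrd-2 and tbrd-3, which encode testis bromodomain proteins, fest and bru1 had an end peak in both conditions. Those of kmg (a zinc finger protein that keeps somatic promoters silent in spermatocytes), sunz and aly were 72h-only. Rbp4, an RNA-binding protein of spermatocytes, was topi-only (chr3R:13656306-13656563, fold 2.40), with the nearest 72h peak 3517 bp away and end peaks in the aly and 48h lists. Over the 9 genes, 6 had an end peak in topi, 7 in aly, 1 in bam, 1 in the heat shock control, 8 at 48 h and 8 at 72 h.

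**Figure D3:**
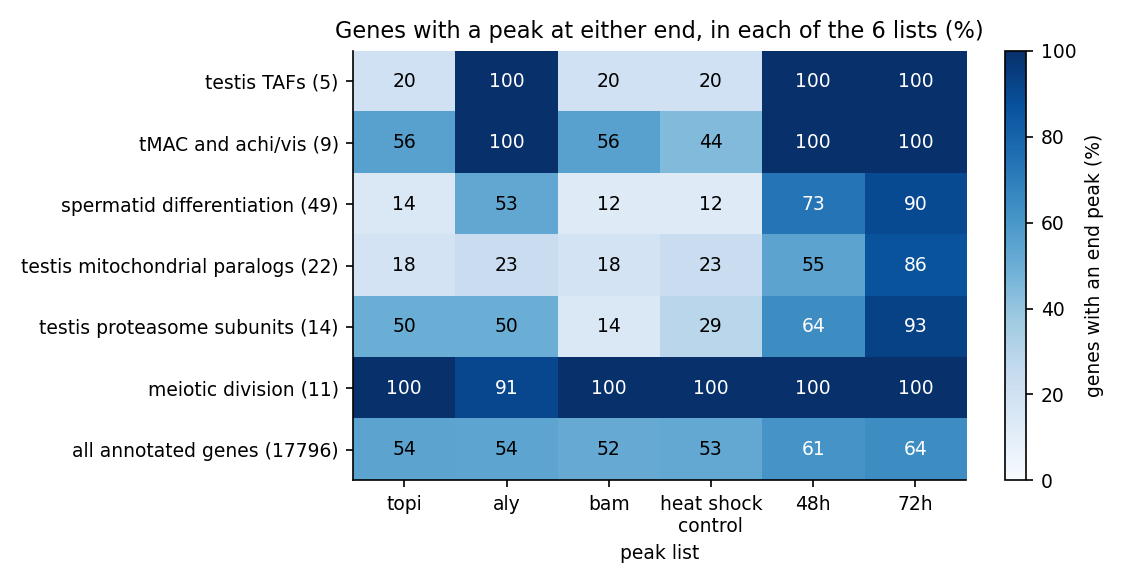
Percentage of the genes of 6 lists and of all 17796 annotated genes (rows) with a peak at either end in each of the 6 peak lists (columns); darker cells are higher. Testis TAFs stand at 20% in topi, bam and the heat shock control and at 100% in aly, 48h and 72h, while meiotic division genes stand between 91% and 100% in every list.

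Spermatid differentiation genes made up the largest group by number. Of 49, 38 (77.6%) were 72h-only, 6 were in both lists, 4 in neither and 1, ctp, a dynein light chain, was topi-only, with a 72h peak 95 bp from its window. The 38 include dj (don juan, a sperm tail protein), the protamine-like genes ProtA, ProtB and Mst77F, fzo (the mitofusin of spermatids), 7 S-Lap genes (leucyl aminopeptidase-like proteins of sperm) and the cup genes c-cup, h-cup, p-cup, r-cup, t-cup and wa-cup, which are transcribed after meiosis. Over the 49 genes, 7 had an end peak in topi, 26 in aly, 6 in bam, 6 in the heat shock control, 36 at 48 h and 44 at 72 h. Of the 38, 29 had end peaks at 72 h that were wholly unshared with topi, and 13 had a topi peak elsewhere in the gene body. The strongest unshared one was that of gskt (gasket, a GSK3 paralog of the testis; chr3R:31372276-31372686, fold 8.95), which had a topi peak 329 bp from its windows. Near-identical neighbours such as the S-Lap and Mst84D genes can share reads and are uncertain one by one.

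Testis paralogs of mitochondrial proteins were also mostly 72h-only. Of 22, 15 were 72h-only, 4 were in both lists (Cyt-c-d, COX7AL, ATPsynbetaL and Tim17b1) and 3 were in neither. The 15 include subunits of complex I (ND-24L, ND-51L1, ND-51L2) and of cytochrome oxidase (COX4L, COX5BL, COX6AL), and the import proteins tomboy20 and tomboy40. The counts of end peaks over the 22 were 4 in topi, 5 in aly, 4 in bam, 5 in the heat shock control, 12 at 48 h and 19 at 72 h. At ND-24L (chr3L:17320234-17320907, fold 6.86) the nearest topi peak was 7970 bp away, and at tomboy20 (chr3R:10735240-10736059, fold 5.87) it was 380 bp away. With windows of 500 bp, 10 of the 22 were 72h-only.

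Proteasome subunits were mostly listed in both conditions or, for the testis-specific ones, divided between classes. Among 14 testis-specific subunits, 6 were 72h-only, 7 were in both lists and 1 was in neither, while among 32 canonical subunits 2 were 72h-only (Rpn6 and Rpn13), 28 were in both and 2 in neither, against 13.0% of all genes being 72h-only. End peaks over the 14 numbered 7 in topi, 7 in aly, 2 in bam, 4 in the heat shock control, 9 at 48 h and 13 at 72 h. Prosbeta4R1 (chr2L:2653009-2653385, fold 5.27), a testis paralog of a core β subunit, had its nearest topi peak at 981 bp.

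Of the remaining lists, the spermatogonial one exceeded the 13.0% of all genes that were 72h-only. None of the 11 genes of the meiotic divisions and none of 22 DNA replication genes were 72h-only; all 11 and 20 of the 22 had an end peak in both lists. All 14 genes of somatic cyst and hub cells, 63 of 67 ribosomal protein genes, 13 of 16 muscle genes and 5 of 15 fat body and blood genes were in both. Of 16 heat shock genes 1 was 72h-only, Hsp70Bb, which belongs to a family of near-identical copies. Among 14 spermatogonial genes, 4 (28.6%) were 72h-only (bam, piwi, aub and tut), 8 were in both and 2 in neither. A topi peak lay 186 bp from the windows of aub and 393 bp from those of tut, and neither is 72h-only with windows of 500 bp. Of the 4, 3 had a topi peak in the gene body, so the excess over 13.0% rests on few genes. The bam gene, part of the transgene in the 72h testes, cannot be read as the endogenous locus alone. Of 12 fertility genes on the Y chromosome 11 had no end peak in either list and ORY was 72h-only, and of 14 accessory gland genes 11 had none in either list.

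The strongest 72h-only end peaks included some far from any topi peak. Of the 10 with the largest fold among genes reaching 10 CPM (counts scaled to the library's total) in some RNA group, 3 had an end peak wholly unshared with topi: CG17349, CG2267 and Dnaaf6, a dynein axonemal assembly factor. Dnaaf6 had the broadest of these, chr3L:14684553-14686275 with a fold of 12.5, which covers the gene from end to end, and the nearest topi peak was 2838 bp away; the aly and 48h lists had an end peak there and the bam and heat shock control lists none. CG2267 (chr3R:30628611-30629136, fold 10.8) had its nearest topi peak at 894 bp and the same pattern over the other lists. CG17349 (chr2L:19370351-19370707, fold 9.78) had its nearest topi peak at 3623 bp and an end peak at 48 h but not in aly, bam or the heat shock control. The other 7 (CG10565, CG12376, CG32795, CG43796, CG8584, Kpc1 and Spag1) had a 72h end peak that overlapped a topi peak lying outside their window, and CG12376 and CG8584 share 1 such peak.

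The strongest topi-only end peaks lay close to 72h peaks. CG1529 on the X (chrX:21031896-21032064) had a topi fold of 5.57 and a 72h peak 116 bp from its windows, and Trm1, a tRNA methyltransferase (chr2L:12427976-12428091), had 3.78 and a 72h peak 161 bp away. Aos1, a subunit of the SUMO-activating enzyme (chr3R:12433767-12433919), had 3.28 and a 72h peak 118 bp away. Of the 10 strongest, 4 (CG30371, CG32436, asRNA:CR43609 and brp) had a topi end peak that overlapped a 72h peak outside the window, and the other 6 had a 72h peak within 334 bp. Aos1 RNA was at 186 and 187 CPM in aly, 57.9 and 57.8 CPM at 72 h and 138 and 134 CPM in bam, so the 72h libraries were the lowest. CG32436 RNA went the other way, at 14.4 and 13.2 CPM in aly, 780 and 783 CPM at 72 h and 7.11 and 7.78 CPM in bam. Both genes overlap another annotated gene, so their reads are uncertain.

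RNA-seq of topi testes was not analysed here, so RNA was read from aly, 72h and bam testes, 2 libraries each. The RNA p-values come from edgeR's quasi-likelihood test over 13495 genes with Benjamini-Hochberg adjustment and measure only the spread between these libraries, which may be technical. A gene counts as higher or lower at an adjusted p below 0.05 and at least 2-fold. In aly against 72h testes 2981 genes (22.1%) were higher and 4533 (33.6%) lower, and in 72h against bam testes 4946 (36.7%) were higher and 3759 (27.9%) lower. Both comparisons use the same 72h libraries. The 72h libraries also held accessory gland RNA, with 4 marker genes summing to 90.9 to 91.9 CPM in aly, 2082 to 2111 CPM at 72 h and 86.5 to 90.2 CPM in bam. Its part in genes lower in aly was not tested. Spermatocyte markers summed to 5375 to 5383 CPM in aly, 1843 to 1854 CPM at 72 h and 72.8 to 72.9 CPM in bam.

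Most genes with a 72h-only end peak had less RNA in aly testes. Of 2018 tested, 1484 (73.5%) were lower in aly than at 72 h and 156 (7.73%) higher, against 33.6% lower and 22.1% higher over all genes tested. Their median log2 difference was −4.81, or −4.62 with the 160 genes that had a group at 0 set to 3 counts, and the median over all genes was −0.07. The median level was 0.998 CPM in aly, 47.8 CPM at 72 h and 0.388 CPM in bam. In 72h against bam testes 1608 (79.7%) were higher and 155 (7.68%) lower, with a median log2 difference of 7.49 (7.16 with zeros at 3 counts), against 0.06 over all genes. Restricted to the 1774 tested genes with wholly unshared end peaks, 1332 (75.1%) were lower in aly.

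Other classes differed from this. Of 7954 tested genes with an end peak in both lists, 1407 (17.7%) were lower and 2004 (25.2%) higher in aly, and their median levels were 32.9 CPM in aly, 28.6 CPM at 72 h and 34.99 CPM in bam. Of 323 tested topi-only genes, 90 (27.9%) were lower and 97 (30.0%) higher in aly, against 33.6% lower and 22.1% higher over all genes tested. Genes with no end peak in either list were lower in aly in 1495 of 2924 cases (51.1%), so RNA lower in aly was not confined to genes with a 72h-only peak. Of the 4476 lower genes with a position on the arms, 33.2% were 72h-only, 31.4% were in both lists, 33.4% in neither and 2.01% topi-only. Of the 2928 higher genes 5.33% were 72h-only, and of the 5815 in neither direction 6.50% were.

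The share lower in aly was smallest for the weakest 72h peaks. In 5 equal parts of the 72h-only genes by peak fold, weakest first, 60.9%, 70.2%, 75.2%, 82.1% and 79.2% were lower in aly. Over the same parts the share with an end peak at 48 h went up at each step, and it was 36.1% in the weakest and 92.3% in the strongest. In the strongest part 36.9% had an end peak in aly and 8.91% in bam.

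The named groups moved in opposite directions in aly; over the whole 72h-only class 73.5% of tested genes were lower in aly and 79.7% higher at 72 h than in bam. Of the 36 spermatid genes of the 72h-only class that were tested, 34 were lower in aly (median log2 difference −4.65), and the remaining ones were Mst98Cb (log2 0.49) and hale (log2 0.07). All 15 mitochondrial paralogs of the class were lower (median −6.54), as were 5 of 6 testis proteasome subunits (median −7.21); Prosbeta2R1, with a log2 difference of −0.59, did not reach 2-fold. The 4 testis TAFs of the class were all higher in aly (median 1.64), and of the 4 tMAC genes 1, tomb, was at least 2-fold higher (median 0.76). Over the whole lists, whatever the end peak, 42 of 47 tested spermatid genes, 21 of 22 mitochondrial paralogs and 9 of 14 testis proteasome subunits were lower. Higher in aly were 4 of 5 testis TAFs and 4 of 9 tMAC genes. These directions were thus not particular to the 72h-only members. In 72h against bam testes all 36 spermatid genes, 15 mitochondrial paralogs, 4 testis TAFs and 4 tMAC genes of the class were higher. Over the whole lists 46 of 47 spermatid genes and 22 of 22 mitochondrial paralogs were. The aly list held an end peak at 4 of 4 testis TAFs and 4 of 4 tMAC genes of the class, 20 of 38 spermatid genes and 2 of 15 mitochondrial paralogs, against 24.2% of the whole class.

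The RNA of can was 483 and 475 CPM in the aly libraries, 95.3 and 99.1 CPM in the 72h libraries and 0.612 and 0.473 CPM in the bam libraries. The 3 groups did not overlap, and aly exceeded 72h by 2.30 ± 0.03 on the log2 scale (SE, edgeR adjusted p = 1.29e-35). For sa the levels were 573 and 575 CPM in aly, 152 and 156 CPM at 72 h and 0 in both bam libraries, a log2 difference between aly and 72h of 1.90 ± 0.02 (SE, edgeR adjusted p = 2.11e-33). mia had 197 and 192 CPM in aly, 85.6 and 82.5 CPM at 72 h and 17.9 and 16.1 CPM in bam. These genes, whose end peaks were not called in topi, thus had their highest RNA in the other arrest mutant. That was not particular to genes without a topi end peak. With end peaks in both lists, topi (log2 difference 2.78), comr (2.07) and achi (2.03) were also higher in aly than at 72 h. Of the other tMAC and testis TAF genes in both lists, Caf1-55 (0.82) and mip40 (0.32) were higher by less, and Taf12L (−0.09) was not. nht had 165 and 174 CPM in aly, 62.7 and 67.0 CPM at 72 h and 8.01 and 8.42 CPM in bam. The genes sa, tomb and Dnaaf6 each overlap another annotated gene, and without the strand of counting their reads cannot be told apart from that partner's.

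Among tMAC genes of the class, tomb had 89.8 and 88.6 CPM in aly, 37.3 and 41.3 CPM at 72 h and 13.6 and 12.5 CPM in bam, a log2 difference between aly and 72h of 1.18 ± 0.05 (SE, edgeR adjusted p = 1.82e-20). wuc had 208 and 204 CPM in aly, 108 and 104 CPM at 72 h and 1.18 and 0.774 CPM in bam. The mutated gene aly itself had 72.0 and 69.6 CPM in aly testes, 98.0 and 96.5 CPM at 72 h and 37.6 and 38.5 CPM in bam, a log2 difference of −0.46 ± 0.03 (SE, edgeR adjusted p = 4.41e-14). So aly RNA was still present in the aly mutant, and RNA alone does not check that label. topi RNA, from a gene with an end peak in every list, was 1141 and 1151 CPM in aly, 165 and 168 CPM at 72 h and 3.67 and 3.91 CPM in bam (log2 difference between aly and 72h 2.78 ± 0.02, SE, edgeR adjusted p = 2.53e-39). Rbp4, with its topi-only end peak, had 878 and 886 CPM in aly, 201 and 212 CPM at 72 h and 2.64 and 3.61 CPM in bam.

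Other genes of the 72h-only class went the other way. Dnaaf6 had 27.9 and 27.5 CPM in aly, 999 and 1002 CPM at 72 h and 1.37 and 1.59 CPM in bam, a log2 difference between aly and 72h of −5.17 ± 0.03 (SE, edgeR adjusted p = 7.77e-43). gskt had 0.527 and 0.517 CPM in aly, 308 and 312 CPM at 72 h and 1.22 and 0.902 CPM in bam, a difference of −9.20 ± 0.07 (SE, edgeR adjusted p = 1.91e-40). ND-24L had 8.67 and 8.28 CPM in aly, 150.3 and 157 CPM at 72 h and 0.659 and 0.559 CPM in bam. Every 72h library lay above every aly library for these genes, and aly lay near the bam level for gskt. tomboy20 was at 0 in both aly libraries, at 197 and 201 CPM at 72 h and at 0.330 and 0.774 CPM in bam. CG17349 had 0.383 and 0.302 CPM in aly, 148 and 153 CPM at 72 h and 0.471 and 0.430 CPM in bam, and CG2267 had 11.3 and 10.6 CPM in aly, 561 and 546 CPM at 72 h and 3.16 and 2.49 CPM in bam. Means over 2 libraries were 2.89 ± 0.31 CPM in aly and 548 ± 2.53 CPM at 72 h for fzo, and 1.60 ± 0.30 CPM in aly and 379 ± 2.01 CPM at 72 h for dj (SD).

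**Figure D4:**
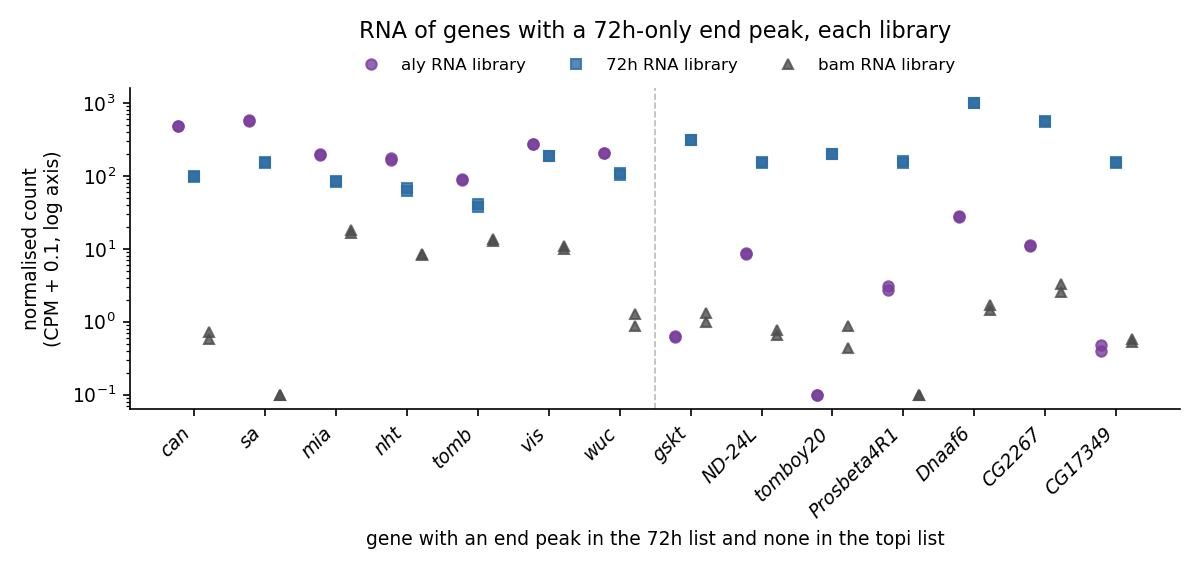
RNA level in each library (y axis, CPM with 0.1 added, log scale) of 14 genes with a 72h-only end peak (x axis); 2 points per group, for aly, 72h and bam testes. Left of the dashed line, testis TAF and tMAC genes lie highest in aly (can 483 and 475 CPM, against 95.3 and 99.1 CPM at 72 h); right of it, other genes of the class lie highest at 72 h (Dnaaf6 999 and 1002 CPM, against 27.9 and 27.5 CPM in aly).

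The nucleosome maps were made from the same ATAC-seq libraries as the peak lists, so their contrast around unshared peaks follows from how those peaks were chosen and is given as a description. The authors' maps list positions with an occupancy between 0 and 1, 139279 in topi (2258183 fragments) and 116245 at 72 h (2097025 fragments). Within 500 bp of a peak of their own list lay 80.5% of topi and 88.7% of 72h positions, so the maps describe little beyond the peaks. Around shared peaks both maps were alike, with 359 positions per 100 peaks within 500 bp of topi summits in the topi map and 355 in the 72h map. Around topi-only summits there were 348 per 100 peaks in the topi map and 125 in the 72h map, and 96.9% of these peaks had any position within 500 bp in the topi map against 45.5% in the 72h map. Around 72h-only summits there were 158 per 100 peaks in the topi map and 328 in the 72h map, and 56.3% had any position in the topi map against 98.6% in the 72h map. A missing position can mean too few fragments rather than a bare site.

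**Figure D5:**
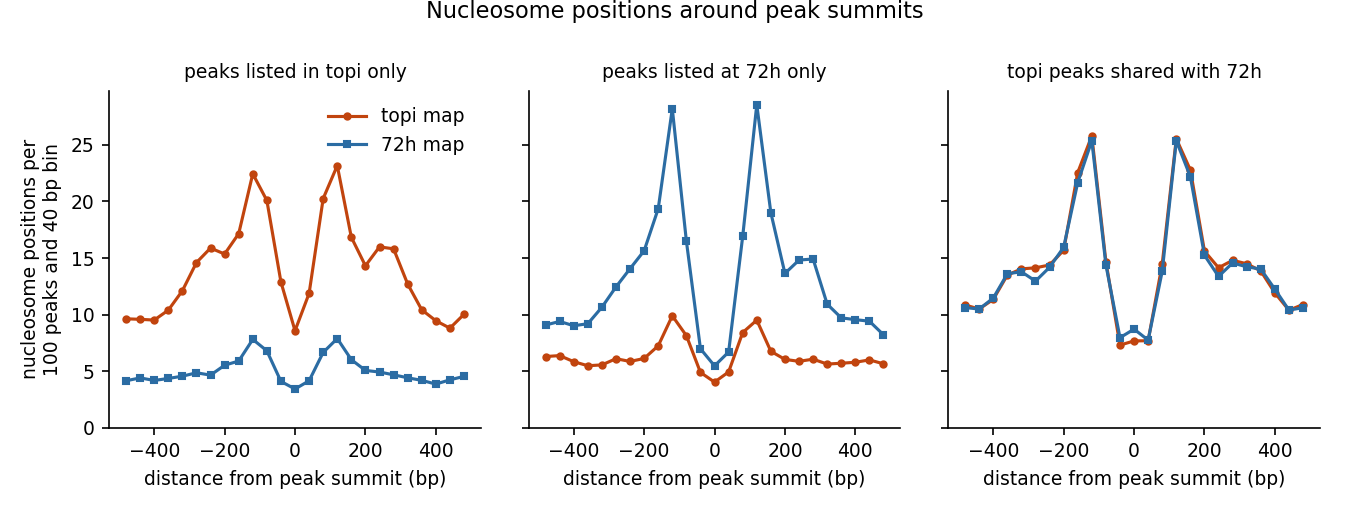
Nucleosome positions per 100 peaks and 40 bp bin (y axis) by distance from the peak summit in bp (x axis), in the topi map (circles) and the 72h map (squares), for peaks listed in topi only, at 72 h only, and topi peaks shared with 72 h. Both maps coincide at shared peaks (359 positions per 100 peaks in topi and 355 at 72 h within 500 bp). At unshared peaks the map of the list that holds the peak lists more positions, as the choice of these peaks entails.

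Summits of topi-only peaks were more often covered by a listed nucleosome. In the topi map a position within 50 bp of the summit was listed at 26.7% of topi-only peaks and at 18.8% of shared topi peaks, with median occupancies of 0.760 and 0.526. In the 72h map it was listed at 15.1% of 72h-only peaks and at 17.9% of shared 72h peaks, with median occupancies of 0.674 and 0.521. The fragments behind these positions differed too, with medians of 13 at topi-only and 22 at shared topi summits, and 12 at 72h-only and 23 at shared 72h summits; their part in the occupancies was not tested.

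Positions listed close together in both maps had similar occupancies. Such a pair need not be the same nucleosome, and no chance level for pairs was computed. Within 20 bp of each other lay 28232 positions, 20.3% of the topi and 24.3% of the 72h map. Median occupancy over these was 0.853 in topi and 0.865 at 72 h. The median difference was −0.00592 (topi minus 72h, quartiles −0.0809 and 0.0546). Over all positions the medians were 0.838 in topi and 0.852 at 72 h, so similar medians are not particular to the pairs. The authors' lower and upper bounds put topi wholly above 72h at 326 positions (1.15%) and wholly below at 386 (1.37%).

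At gene ends, 31.2% of 72h-only genes had a listed position in the topi map and 62.9% in the 72h map. For topi-only genes it was 75.05% in the topi map and 37.4% in the 72h map, and for genes with an end peak in both lists 59.5% in the topi map and 62.5% in the 72h map.

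Unshared peaks sometimes followed each other along a chromosome. Runs of 10 or more consecutive unshared peaks of a list were collected, and those described here were chosen after their values were seen. Some of the longest lie near the centromere ends of the arms. Within the arms, chr3R:6554083-6630228 held 19 consecutive 72h-only peaks at genes that include sowi, sunz and glob2, with 4 topi, 5 aly, 11 48h, 3 heat shock control and 2 bam peaks in the same span, and with 33 nucleosome positions in the topi and 53 in the 72h map. The span chr2L:1334084-1353790 held 12 72h peaks, with 2 topi, 11 aly and no bam peaks, and with 19 nucleosome positions in the topi and 35 in the 72h map. A run of 14 at chr2L:12855073-12925680 covered the adenylyl cyclase genes ACXA, ACXB, ACXC and ACXE and held 1 topi peak, although its nucleosome signal was similar, with 31 positions from 389 fragments in the topi map and 40 from 383 in the 72h map. At chr2L:12278568-12319870, in bru1, which encodes a translational repressor, 12 72h peaks faced no topi peak, and the nucleosome maps listed 5 topi and 40 72h positions.

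Runs of topi-only peaks were found as well. At chr3L:7470042-7495076, over Cyp316a1, Cyp4d8 and mthl6, 22 consecutive topi peaks had no 72h partner, with 72 nucleosome positions in the topi and 8 in the 72h map. At chr3R:26602326-26641570 a run of 19 lay over Twdl cuticle protein genes, with 3 72h peaks in the span that overlapped none of them. At chrX:23404688-23530578, a span with no annotated gene, 22 topi peaks had no peak of any of the other 5 lists, and the maps listed 49 topi and 0 72h positions. The topi animals differ in genotype from all the other groups, and whether this span of their genome differs was not tested.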

How the data were processed

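Peak regions came from the authors' deposited MACS2 lists, 1 per condition; the sources used here do not say how replicates were combined. Each peak carries the authors' fold enrichment over background (a ratio), its −log10 q, and a score that is 10 times −log10 q. Per the submitters' processing notes, the build was dm6 and the peak caller MACS2 2.1.1; aligners named there are BWA 0.7.10 and STAR (2.5.1b, 2.5.4b), with no steps given. The authors' deposited nucleosome maps give occupancy as a fraction, with its bounds (a score), and the count of fragments per position. The RNA files hold raw counts per gene as the authors deposited them, 20064489 to 28984275 per library; the counting tool and its strand setting are not stated in what was used here, so overlapping and antisense genes are uncertain. ATAC-seq library depth is unknown beyond the fragments counted in the nucleosome maps. Intervals on peak counts cover counting error only, and the spread between replicates is not measured.

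Peaks were shared at an overlap of 1 bp. Gene positions came from RefSeq's table for Release 6 plus ISO1 MT (17796 genes on the arms). These genes were tied to the FlyBase IDs of the RNA counts by gene symbol, and 13219 of them were tested for RNA. The table gives no strand, so the planned promoter window was replaced, after the files were seen, by 100 bp either side of both gene ends. RNA counts from 8 libraries of 4 groups were fitted with edgeR 4.0.16 (quasi-likelihood, TMM scaling, low-count filter, R 4.3.3), with DESeq2 1.42.0 as an alternative, and the fit was checked on simulated counts. CPM uses TMM-scaled library sizes. A chi-square test between the 2 libraries of each group gave an unadjusted p below 0.05 at 7.31% to 7.69% of genes. Sampling noise alone would give a fraction of about 0.05, so only the excess over that can be more than noise. CAGE counts were not used here, since their clusters could not be tied to positions.

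Named genes are every tMAC, achi, vis and testis TAF gene; the 10 genes with the largest peak fold in each of the 72h-only and topi-only classes with a mean of at least 10 CPM in some RNA group; and the 2 such members per gene list and class. Other members of a list that are named, with their values, were chosen after their values were seen. Genes and lists were chosen with earlier results of these data known. Alternatives were stricter overlap, summit distance, a −log10 q of at least 10, equal list lengths, windows of 250 and 500 bp or the gene body, the nucleosome matching distance and fragment minimum, RNA scaling and filters, and leaving out RNA libraries.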

Additional observations from a re-analysis of the deposited data

How the results depend on the processing

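The shared percentage of topi peaks (72.1%) was 58.2% with a reciprocal overlap of 50%, 61.5% with summits within 100 bp, 83.8% with a −log10 q of at least 10 in both lists, 91.6% with that minimum on the topi list alone and 75.8% with equal list lengths. For 72h peaks (73.3%) these were 62.3%, 65.9%, 73.1%, 80.0% and 72.1%. Merging the peaks of each list moved neither. The 2305 genes with a 72h-only end peak numbered 1827 to 2354 over 7 alternatives, of which windows of 250 bp, the gene body, other peaks within 100 bp and wholly unshared peaks were added after seeing the data. The 553 topi-only genes numbered 850 with windows of 500 bp, 925 over gene bodies and 368 at a −log10 q of at least 10. With windows of 500 bp, 2 testis TAFs, 2 tMAC genes and 26 spermatid genes were 72h-only. A window around the start alone was not run, since the table has no strand. Matched nucleosomes were 36.6% of topi and 43.8% of 72h positions at 50 bp, 21.6% and 29.1% with at least 10 fragments, and 31.6% and 31.9% inside shared peaks; the median occupancy difference was −0.00543, −0.00722 and −0.00792. No ATAC-seq replicate could be left out of a pooled list.

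RNA counts stayed within 1.5 times under every scaling, filter and tool tried: genes lower in aly numbered 4224 to 4939, and 4533 to 4621 without 1 library; 72h-only genes lower in aly numbered 1442 to 1514, and 1482 to 1493 without 1 library. Scaling by library size alone put the median of all genes at 0.15 (log2) in aly against 72h, DESeq2 size factors at −0.15. Taf12L, at −0.09 (log2, aly against 72h), was at 0.13 with library size alone. With the replicate block 4532 genes were lower in aly, and 1484 of the 72h-only class; same-numbered libraries correlated in their deviations at 0.03 to 0.10, so the numbers do not pair them.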
